A study of Mus musculus with 12 samples.

Results

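Rhox5, Rhox6 and Rhox9 are 3 genes of the Rhox cluster, a run of reproductive homeobox genes on the X chromosome of the mouse. They are 3 of 36983 genes or other targets on the array and were read by 3 of its 55681 gene-directed probes, 1 for each gene. The probes were found through the RefSeq transcript accession that each carries in the scanner files: A_51_P376445 (NM_008818) for Rhox5, A_51_P487048 (NM_008955) for Rhox6 and A_51_P346132 (NM_023894) for Rhox9. Rhox6 and Rhox9 were chosen by their log2 levels in these same arrays, on which the effect of medium differed strongly between genotypes, so their values are given as a description with no test. Rhox5 was not chosen for a difference and was tested with all other genes, although it was taken up with earlier results of these data known.

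Total RNA of mouse embryonic stem cell lines was hybridised to 12 single-colour arrays, 3 per group. Cells lacking Nat1 were kept with 2i+LIF or with LIF, and wild-type cells were likewise kept with 2i+LIF or with LIF, all on gelatin-coated plates in standard stem cell medium. LIF is a cytokine that sustains the undifferentiated state, and 2i stands for inhibitors of the kinases MEK and GSK3 given together. Nat1 is read as a former name of the Eif4g2 gene, whose product (DAP5) takes part in starting translation. The labels state neither how the allele was made nor whether the replicates of a group were separate cultures or clones, so p-values measure no more than the spread among the arrays of a group, which may be technical.

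Rhox proteins are transcription factors with a homeodomain that are expressed mainly in the placenta, the germ line and the somatic cells of testis and ovary. Rhox5, first described as Pem, is made in extraembryonic tissue and in Sertoli cells of the testis. Rhox6 (also Psx1) and Rhox9 (also Psx2 or Gpbox) are closely related genes of placenta and germ cells. In mouse embryonic stem cells and embryos, genes of the cluster are known to be held down by DNA methylation, and loss of linker histone H1 raises some of them.

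The 250 bases before the annotated start were read from the RefSeq promoter table (build GRCm38.p6) for Rhox5 and for Rhox2h and Rhox4g, the other Rhox genes whose levels over the 12 arrays are described with it below. That source holds no window for Rhox6 or Rhox9, so the 28 Rhox windows counted below leave them out. The window of Rhox5 lies at chrX:37754358-37754607 on the plus strand, that of Rhox2h at chrX:37673278-37673527 on the minus strand and that of Rhox4g at chrX:37651328-37651577 on the minus strand. Capitals mark every CG, the pair of letters at which mammalian DNA is methylated, and 3 short motifs searched on both strands: TTCCGG (the core letters of many ETS factor sites), and GGGCGG and GGCGGG, which are overlapping stretches of the longer GC box bound by Sp1.
Rhox5: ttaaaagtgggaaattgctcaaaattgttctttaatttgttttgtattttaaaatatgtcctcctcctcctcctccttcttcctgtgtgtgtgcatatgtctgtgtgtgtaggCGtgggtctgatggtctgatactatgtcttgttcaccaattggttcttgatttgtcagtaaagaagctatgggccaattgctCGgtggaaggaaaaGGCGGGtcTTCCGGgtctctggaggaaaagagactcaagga
Rhox2h: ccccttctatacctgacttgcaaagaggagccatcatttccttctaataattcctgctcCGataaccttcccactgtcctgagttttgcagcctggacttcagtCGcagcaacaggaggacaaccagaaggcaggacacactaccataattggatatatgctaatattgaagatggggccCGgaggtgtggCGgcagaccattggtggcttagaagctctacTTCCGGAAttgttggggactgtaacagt
Rhox4g: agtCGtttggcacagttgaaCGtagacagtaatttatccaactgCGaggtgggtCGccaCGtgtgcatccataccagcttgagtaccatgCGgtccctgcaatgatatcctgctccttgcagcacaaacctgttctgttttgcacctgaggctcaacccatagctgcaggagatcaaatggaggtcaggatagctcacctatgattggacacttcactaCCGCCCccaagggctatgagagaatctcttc
The Rhox5 window holds 1 GGCGGG that begins 41 bases before the start and 1 TTCCGG that begins 33 bases before it. The Rhox2h window holds TTCCGG, which begins 28 bases before the start and overlaps its own reverse complement CCGGAA. The Rhox4g window holds CCGCCC, the reverse complement of GGGCGG, which begins 31 bases before the start, and neither of the other motifs. The 7 windows of Rhox2 genes in the table all hold TTCCGG, the 7 of Rhox4 genes and the 7 of Rhox3 genes hold none, and 12.0% of the 32851 windows of all genes hold it. GGCGGG is in 32.5% of all windows, GGGCGG in 32.7%, and TTCCGG and GGCGGG occur together in 6.41%. The number of CG pairs is 4 for Rhox5, 5 for Rhox2h and 7 for Rhox4g, against a median of 6 over all windows and of 4.5 over 28 Rhox windows. These letters are a description of the sequence and not of any binding or methylation, which the arrays did not measure.

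Between 49.8% and 66.3% of 59305 gene spots were well above background on each array, and 24463 genes were tested. Levels are log2 signals from which the 75th percentile of their array was subtracted, so a level of 0 equals that percentile, and they compare one gene between arrays but not one gene with another. Eif4g2, the targeted gene, had a level of 1.31 ± 0.10 in Nat1-null 2i+LIF, 1.28 ± 0.04 in Nat1-null LIF, 4.20 ± 0.10 in wild-type 2i+LIF and 4.49 ± 0.05 in wild-type LIF (SD, n = 3 each). Where its probe lies relative to the deleted part is not given in the sources used here. All 15 pluripotency markers tested, Pou5f1, Sox2 and Nanog among them, were well above background on all arrays. The arrays of each wild-type group lay on a slide of their own and all Nat1-null arrays on another slide, so slide and group cannot be told apart except between the Nat1-null groups.

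The replicates numbered 2 of both Nat1-null groups stood apart from the other Nat1-null arrays in the Rhox genes. Of 15 Rhox genes well above background on all arrays, 7 were higher in replicate 2 than in both other replicates by over 1 log2 unit in both media. The same held for 36 of all 18980 genes well above background on all arrays. The 7 are Rhox2, Rhox3 and Rhox4 genes, whose probes may each read several copies. For the 9 Rhox2, Rhox3 and Rhox4 genes, replicate 2 exceeded the mean of replicates 1 and 3 by 1.15 to 1.56 in Nat1-null 2i+LIF and by 1.47 to 1.98 in Nat1-null LIF on the log2 scale. In wild-type cells the same gap ran between 0.03 and 0.28 in 2i+LIF and between -0.07 and 0.28 in LIF. The gap was smaller for the 3 genes described first: 0.80 and 1.31 for Rhox5, 0.29 and 0.72 for Rhox6, and 0.32 and 0.72 for Rhox9 in Nat1-null 2i+LIF and Nat1-null LIF. Some values that rest on these arrays are given below also without both of them, a choice made after seeing the data.

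**Figure D1:**
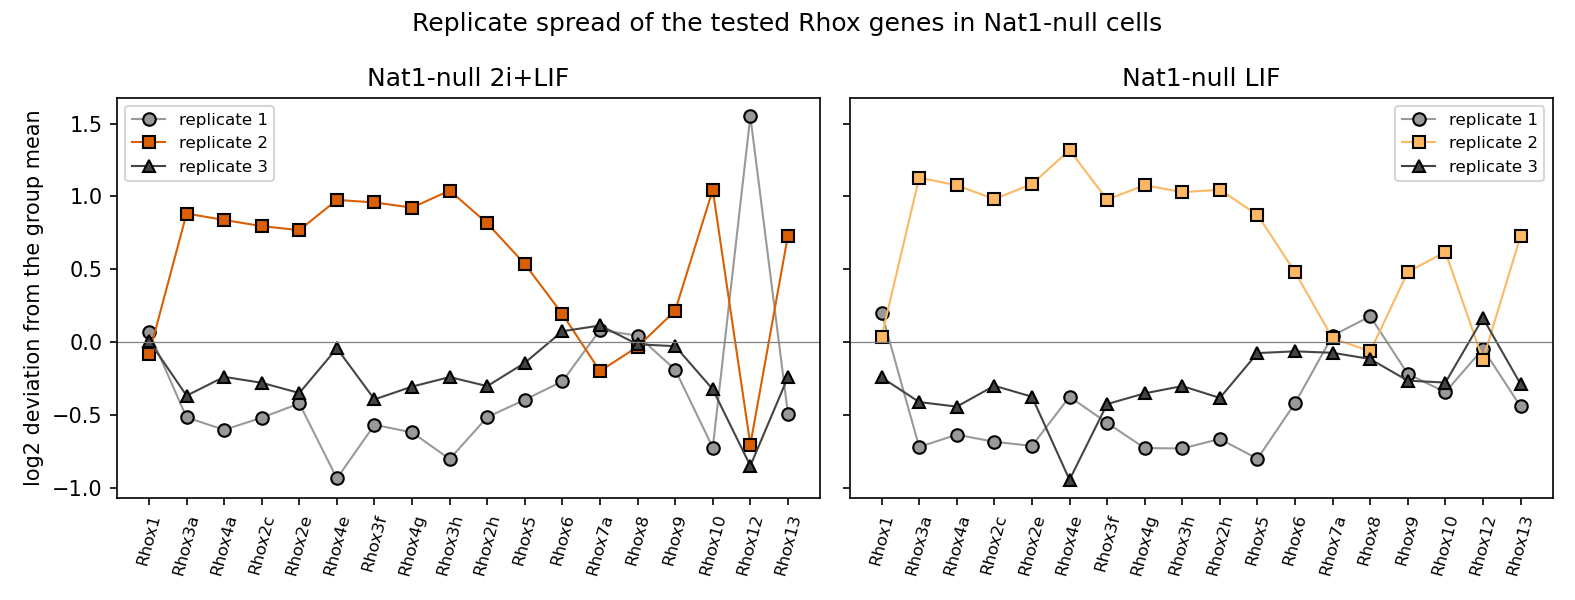
Deviation of each replicate from its group mean (log2, vertical axis) for the 18 tested Rhox genes in their order along the X chromosome, in Nat1-null 2i+LIF (left) and Nat1-null LIF (right), 1 line per array. Replicate 2 lies highest in both panels from Rhox3a to Rhox6 and again at Rhox9, Rhox10 and Rhox13.

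Rhox6 was high in wild-type LIF and intermediate in Nat1-null 2i+LIF, and low in the other 2 groups. Its level was 1.85, 2.31 and 2.19 on the 3 Nat1-null 2i+LIF arrays. The Nat1-null LIF arrays read -1.68, -0.78 and -1.32. Wild-type 2i+LIF arrays gave -0.52, -0.21 and -0.18, and wild-type LIF arrays 3.86, 3.88 and 4.02. No 2 groups overlap, and the closest neighbours in the order are wild-type 2i+LIF and Nat1-null LIF, whose nearest arrays lie closer together than the Nat1-null LIF arrays lie among themselves. The group means were 2.12 ± 0.24 in Nat1-null 2i+LIF, -1.26 ± 0.45 in Nat1-null LIF, -0.30 ± 0.19 in wild-type 2i+LIF and 3.92 ± 0.09 in wild-type LIF (SD, n = 3 each).

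The effect of the medium on Rhox6 had opposite directions in the genotypes. Nat1-null cells in 2i+LIF had 10.4-fold more Rhox6 signal than Nat1-null cells in LIF, a log2 difference of 3.37. Wild-type cells in 2i+LIF had 18.6-fold less than wild-type cells in LIF, a log2 difference of -4.22. The effect of the genotype likewise turned with the medium: Nat1-null cells were 5.34-fold higher than wild-type cells in 2i+LIF (2.42) and 36.2-fold lower in LIF (-5.18). The 2i effect in Nat1-null cells minus that in wild-type cells came to 7.59 on the log2 scale, the 14th largest in size of 24463 genes and the 2nd of 18980 genes well above background on all arrays. Without replicate 2 of both Nat1-null groups it was 7.74.

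Rhox9 ran beside Rhox6 in every group. It read 2.47, 2.87 and 2.63 in Nat1-null 2i+LIF and -0.55, 0.15 and -0.60 in Nat1-null LIF. In wild-type 2i+LIF it read 0.47, 0.83 and 0.72, and in wild-type LIF 4.51, 4.52 and 4.60. The groups again did not overlap and stood in the same order, with wild-type LIF highest, Nat1-null 2i+LIF next, then wild-type 2i+LIF and last Nat1-null LIF. The means were 2.66 ± 0.20, -0.34 ± 0.42, 0.67 ± 0.19 and 4.54 ± 0.05 for Nat1-null 2i+LIF, Nat1-null LIF, wild-type 2i+LIF and wild-type LIF in that sequence (SD, n = 3 each).

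For Rhox9, Nat1-null cells in 2i+LIF stood 7.97-fold above those in LIF (2.99), while wild-type cells in 2i+LIF stood 14.6-fold below wild-type cells in LIF (-3.87). Nat1-null cells were 3.96-fold above wild-type cells in 2i+LIF (1.98) and 29.4-fold below them in LIF (-4.88). The difference between the 2i effects was 6.86, the 29th largest in size of all genes tested and the 6th among those well above background on all arrays, and 6.99 without the replicates numbered 2. Across the 12 arrays Rhox6 and Rhox9 correlated at r = 0.998. Both genes are paralogs and the probe letters were not used here, so how far 1 probe also reads the RNA of the other gene was not tested.

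**Figure D2:**
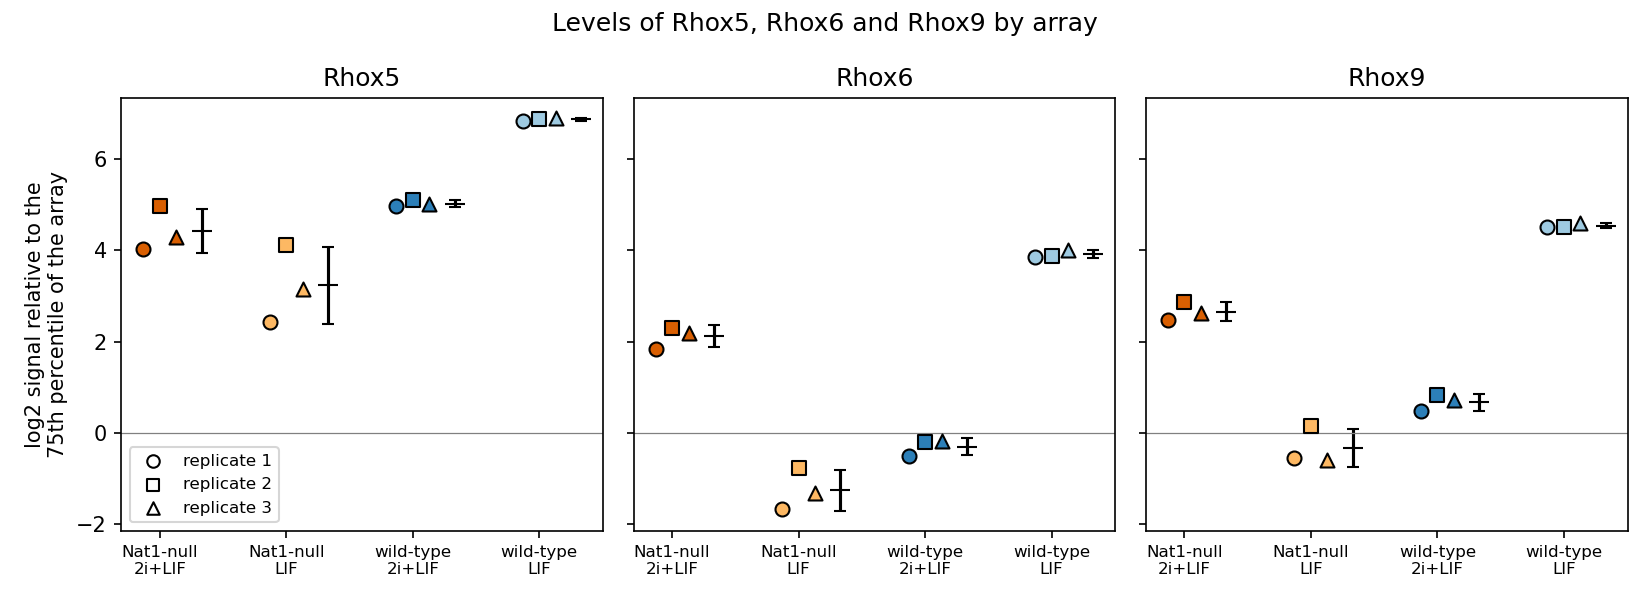
Level of Rhox5, Rhox6 and Rhox9 on each array (log2 signal minus the 75th percentile of its array), with groups from left to right and symbols for the replicate number; the bar beside each group is its mean ± SD of 3 arrays. Rhox6 and Rhox9 are higher in Nat1-null 2i+LIF than in wild-type 2i+LIF, whereas for Rhox5 the Nat1-null 2i+LIF arrays lie between 4.03 and 4.96 and the wild-type 2i+LIF arrays between 4.96 and 5.10.

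Rhox5 had another order of groups, with both Nat1-null groups below both wild-type groups. It read 4.03, 4.96 and 4.29 in Nat1-null 2i+LIF and 2.44, 4.11 and 3.16 in Nat1-null LIF. Wild-type 2i+LIF gave 4.96, 5.10 and 5.02, and wild-type LIF 6.83, 6.88 and 6.90. The Nat1-null groups overlap each other, and the highest Nat1-null 2i+LIF array all but meets the lowest wild-type 2i+LIF array. The Nat1-null groups were also far more spread, with SDs of 0.48 in 2i+LIF and 0.84 in LIF, against 0.07 in wild-type 2i+LIF and 0.04 in wild-type LIF.

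In wild-type cells Rhox5 fell 3.59-fold in 2i+LIF, a log2 difference of -1.84 with an SE of 0.36 (limma, adjusted p = 0.0014). In LIF it fell 12.4-fold in Nat1-null cells relative to wild-type cells, a log2 difference of -3.64 with an SE of 0.36 (limma, adjusted p = 1.1e-05). Of all genes tested, 27.2% fell and 62.2% passed in either direction in the first of these comparisons, and 32.9% fell and 66.8% passed in the second.

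In 2i+LIF the level of Rhox5 in Nat1-null cells was -0.60 relative to wild-type cells, with a 95% interval of -1.41 to 0.21 (limma, adjusted p = 0.21; 43.6% of genes passed in either direction). Without the replicates numbered 2 this difference was -0.87 and passed (adjusted p = 0.006). Between the media in Nat1-null cells Rhox5 rose 2.29-fold in 2i+LIF, a log2 difference of 1.19 with an SE of 0.36 (limma, adjusted p = 0.027; 21.4% of genes rose and 37.1% passed in either direction). That call is lost without replicate 2 of Nat1-null 2i+LIF (adjusted p = 0.093), without replicate 1 of Nat1-null LIF (0.078) or without replicate 3 of Nat1-null LIF (0.068), and under quantile normalization (0.051) or no scaling (0.069); with both replicates numbered 2 left out the difference was 1.36 (0.0014).

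The 2i effect on Rhox5 differed between the genotypes by 3.04 with an SE of 0.51 (limma, adjusted p = 8.3e-04; 23.6% of genes had a positive difference that passed and 49.7% passed with either sign). In size it ranked 939th of 24463 genes. Rhox5 correlated with Rhox6 at r = 0.816 and with Rhox9 at r = 0.840 over the 12 arrays, a description over samples that share groups and slides. Against the 75th percentile, all 3 genes were highest in wild-type LIF and lowest in Nat1-null LIF, and they differed in where Nat1-null 2i+LIF stood.

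The comparison between the Nat1-null groups is the one that can be made within a slide, and 4 of those arrays share a row of it: replicate 3 of Nat1-null LIF and all of Nat1-null 2i+LIF. Within that row the mean of Nat1-null 2i+LIF minus the Nat1-null LIF array was 1.27 for Rhox5, 3.44 for Rhox6 and 3.26 for Rhox9, with 1 array on the LIF side and no test. Over all arrays of both groups the differences were 1.19, 3.37 and 2.99.

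Markers of fibroblasts and feeder cells moved with the wild-type LIF group. Their summed signal, in multiples of the 75th percentile of the array, lay between 2.06 and 2.40 in Nat1-null 2i+LIF, between 0.855 and 1.35 in Nat1-null LIF, between 2.33 and 2.58 in wild-type 2i+LIF and between 133 and 151 in wild-type LIF. Of 11 such genes tested, 10 fell and none rose in Nat1-null LIF, and 8 fell and 1, Pdgfrb, rose in wild-type 2i+LIF, relative to wild-type LIF (32.9% and 27.2% of all genes fell). Col3a1, Col5a2, Postn and Dcn passed the filter through wild-type LIF alone, so that their falls follow from it. Of the 5 bright on all arrays, 4 fell in Nat1-null LIF and 2 in wild-type 2i+LIF (28.3% and 23.6% of all genes bright on all arrays). Fap and Lum were not well above background on any array. Their part in the high level of the Rhox genes in wild-type LIF was not tested. Between Nat1-null 2i+LIF and wild-type 2i+LIF, Rhox6 and Rhox9 stood 5.34-fold and 3.96-fold apart, and the summed ranges of these markers overlap. The brightest probes dominate such a sum, and Pdgfrb had the highest mean level of the list in both groups. Pdgfrb averaged 0.26 in Nat1-null 2i+LIF and -0.15 in wild-type 2i+LIF, so the overlap says little about the other markers. Of the 11, 3 were called lower and 1 higher in Nat1-null cells (22.6% and 21.0% of all genes). The summed signal of the pluripotency markers was lowest in wild-type LIF, at 278 to 290, against 559 to 663 in Nat1-null 2i+LIF, 622 to 767 in Nat1-null LIF and 536 to 564 in wild-type 2i+LIF. In these bulk samples, fewer cells of a type and less RNA per cell cannot be told apart.

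The other Rhox genes were read by 22 further probes for 17 genes, of which 15 genes passed the filter on dim probes. Rhox3e and Rhox11 did not pass it. Probes designed to Rhox2, Rhox3 and Rhox4 genes may each read several copies, since these genes are repeated in nearly identical form, so the letter after the number is that of the design and is uncertain as to the copy. A count over the 15 tested genes leaves out those too dim in every group and describes only those that passed. Rhox12 passed through wild-type LIF alone, so its lower signal elsewhere and its positive difference of 2i effects follow from the filter, and its calls are not evidence of a change. Counts are therefore given also over the 12 of these genes that were well above background on all arrays, which leaves out Rhox12, Rhox4a and Rhox4e.

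Most of the other Rhox genes fell with Rhox5 in Nat1-null LIF. In Nat1-null LIF against wild-type LIF, 11 of 15 fell and 1 rose, with a median log2 difference of -1.96, where 32.9% of all genes fell and the median over all genes was 0.02. The 1 that rose was Rhox7a, by 0.37. Rhox4e fell 14.3-fold, Rhox4a 11.8-fold and Rhox4g by 3.46 on the log2 scale (limma, adjusted p = 1.9e-04, 5.9e-05 and 9.7e-05). The probes of Rhox4e and Rhox4a were not well above background on replicate 3 of Nat1-null LIF, so these 2 folds depend on the background subtraction. Rhox2h fell 6.17-fold, Rhox2c 6.11-fold and Rhox2e 5.77-fold. The 3 Rhox3 probes that stood for Rhox3a, Rhox3f and Rhox3h gave -0.95, -0.83 and -0.70 and did not pass. Of the 12 bright on all arrays 8 fell and 1 rose (28.3% and 40.8% of all genes bright on all arrays). Without the replicates numbered 2, 14 of the 15 fell.

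X-linked genes outside the family also leaned lower in Nat1-null LIF. The median of 593 such genes was -0.61 relative to wild-type LIF, and that of 433 of them that were well above background on all arrays was -0.28, against 0.09 for 12092 autosomal genes with the same property. Their part in the values of the Rhox genes was not tested.

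In wild-type cells, 4 of the 15 other Rhox genes fell in 2i+LIF and none rose (27.2% and 35.0% of all genes). The called genes were Rhox4a (-1.27), Rhox4g (-1.22), Rhox10 (-1.28) and Rhox12, the last by way of the filter, and the median over the 15 was -0.98. Of the 12 bright on all arrays 2 fell (23.6% of all such genes). The Rhox2, Rhox3 and Rhox4 genes were lower in wild-type 2i+LIF by 0.89 to 1.37 in the means, and only Rhox4a and Rhox4g of them passed. Their probes may each read several copies, so these genes are not separate observations. Without the Nat1-null replicates numbered 2, whose spread enters the shared variance, 11 of the 15 fell and 1 rose.

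Between the Nat1-null groups, 3 of the 15 rose in 2i+LIF and 1, Rhox10, fell (21.4% and 15.8% of all genes). The 3 were Rhox4a (3.55-fold), Rhox4e (3.11-fold, with 1 array of each group not well above background) and Rhox4g (3.07-fold), and without the replicates numbered 2 the count of rises was 9. With all arrays, the share of rises was close to that of all genes. Of the 12 bright on all arrays, 1 rose and 1 fell there (25.1% and 16.0% of all such genes). The 2i effect differed between the genotypes, with a positive sign, for 8 of the 15 and with a negative sign for none (23.6% and 26.1% of all genes). These 8 were Rhox2c, Rhox2e, Rhox2h, Rhox3a, Rhox4a, Rhox4e, Rhox4g and, by way of the filter, Rhox12. Of the 12 bright on all arrays 5 were positive and none negative (21.6% and 30.5% of all such genes). Without the replicates numbered 2 the counts over the 15 were 10 and 2. The Rhox4 genes had differences between 2.84 and 3.10, the Rhox2 genes between 1.64 and 1.76, and Rhox6 and Rhox9 stood at 7.59 and 6.86.

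In 2i+LIF, Nat1-null cells had 4 of the 15 lower and 1 higher than wild-type cells (22.6% and 21.0% of all genes), and 9 lower and 3 higher without the replicates numbered 2. Of the 12 bright on all arrays, 4 were lower and 1 higher (21.0% and 25.3% of all such genes). Rhox10 and Rhox13 were among the 4, at -2.89 and -2.06, and Rhox1 and Rhox8 at -0.55 and -0.61, and the 1 higher gene was Rhox7a at 0.35. By the probes that stood for the genes, none but Rhox6 and Rhox9 stood above wild type here by more than the 0.93 of Rhox3h, whose adjusted p was 0.15 (limma). A second Rhox3f probe gave 0.97 and did not pass either.

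**Figure D3:**
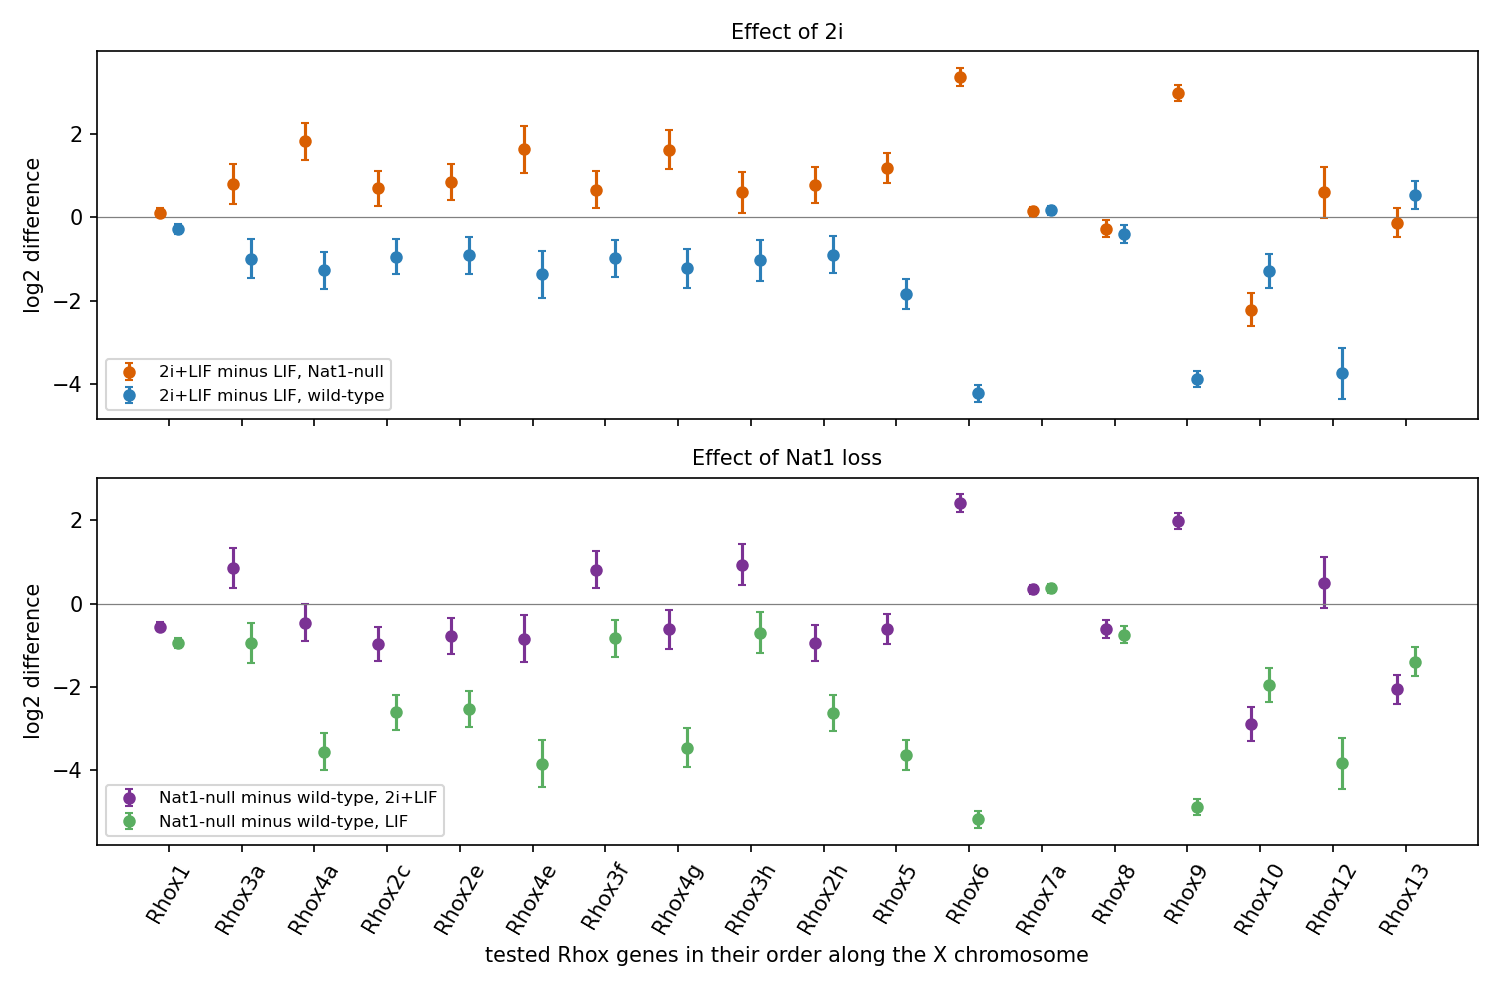
Log2 differences for the 18 tested Rhox genes in their order along the X chromosome; the upper panel gives 2i+LIF minus LIF in Nat1-null and in wild-type cells, the lower panel Nat1-null minus wild-type in 2i+LIF and in LIF, and bars are the SE of the fit. The points of Rhox6 and Rhox9 lie farthest apart in both panels, while Rhox8 and Rhox10 lie below 0 in all 4 comparisons.

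Genes at the far end of the cluster went their own ways. Rhox10 fell in all 4 comparisons of one group with another, with log2 differences of -2.21 in Nat1-null 2i+LIF against Nat1-null LIF, -2.89 in Nat1-null against wild-type cells in 2i+LIF, -1.96 in Nat1-null against wild-type cells in LIF, and -1.28 in wild-type 2i+LIF against wild-type LIF (limma, adjusted p between 3.1e-04 and 0.019). Its lowest group was thus Nat1-null 2i+LIF, at -2.46 ± 0.93, whereas Rhox6, Rhox9 and Rhox5 had theirs in Nat1-null LIF. Rhox13 was lower in Nat1-null cells in both media, by 2.63-fold in LIF and 4.16-fold in 2i+LIF, and its difference between media passed in neither genotype. In Nat1-null 2i+LIF, replicate 2 exceeded the mean of replicates 1 and 3 by 1.57 for Rhox10 and 1.10 for Rhox13. In Nat1-null LIF these gaps were 0.93 and 1.09, and values of both genes without the replicates numbered 2 are not given here. Rhox12 was well above background in wild-type LIF alone, at least 4.63-fold above Nat1-null LIF and at least 4.72-fold above wild-type 2i+LIF, each bound set against the dimmest measurable probe.

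Rhox7a and Rhox8 lie between Rhox6 and Rhox9 on the chromosome. The probes that stood for them did not share the pattern of Rhox6 and Rhox9. The Rhox7a probe that stood for the gene had levels between -3.92 and -3.21 on all arrays. A second Rhox7a probe, dim outside wild-type LIF, went the other way, and the probes of Rhox8 also disagreed in direction for Nat1-null LIF against wild-type LIF (-0.75 and 0.36). By the probes that stood for the genes, the 2i effects on Rhox7a and Rhox8 differed between genotypes by -0.03 and 0.13, with adjusted p of 0.90 and 0.73 (limma). The second probes gave 1.39 for Rhox7a and -0.25 for Rhox8. The second Rhox7a probe passed the filter through wild-type LIF alone, so its positive value follows from the filter.

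Likeness within the family was described by correlation over the 12 arrays. Rhox5 correlated with the probes of Rhox2c, Rhox2e, Rhox2h, Rhox4a, Rhox4e and Rhox4g at r between 0.956 and 0.972, and with Rhox3a, Rhox3f and Rhox3h between 0.495 and 0.599. Rhox6 correlated with the same 6 Rhox2 and Rhox4 probes at 0.674 to 0.797. Rhox5 correlated at 0.964 with Rhox2h and at 0.972 with Rhox4g, the genes whose windows are printed above. Any part of the marked letters in these levels was not tested.

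Outside the family, the genes most like each of the 3 were taken among 6608 genes whose group means spanned at least 1 log2 unit. For Rhox6 they were Phc2, a Polycomb protein (r = 0.985), Amotl2, a protein of cell junctions (0.984), Hip1, an endocytic adaptor (0.983), Rhod, a small GTPase (0.981), and Prss8, a membrane-bound serine protease (0.978). For Rhox9 they were Rhod (0.988), Phc2 (0.984), Hip1 (0.983), Amotl2 (0.981) and Gja1, the gap junction protein connexin 43 (0.978). Gja1 averaged -1.54 in Nat1-null 2i+LIF, -4.13 in Nat1-null LIF, -2.78 in wild-type 2i+LIF and 0.73 in wild-type LIF, the same order of groups as Rhox9. For Rhox5 they were Pon3, a paraoxonase (0.989), Rab3b, a GTPase of secretory vesicles (0.989), Chac2, an enzyme that breaks down glutathione (0.988), Bbx, an HMG box protein (0.988), and H2bfm, a histone H2B variant (0.987). The lists of Rhox6 and Rhox9 share 4 of 5 genes, and neither shares a gene with that of Rhox5.

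**Figure D4:**
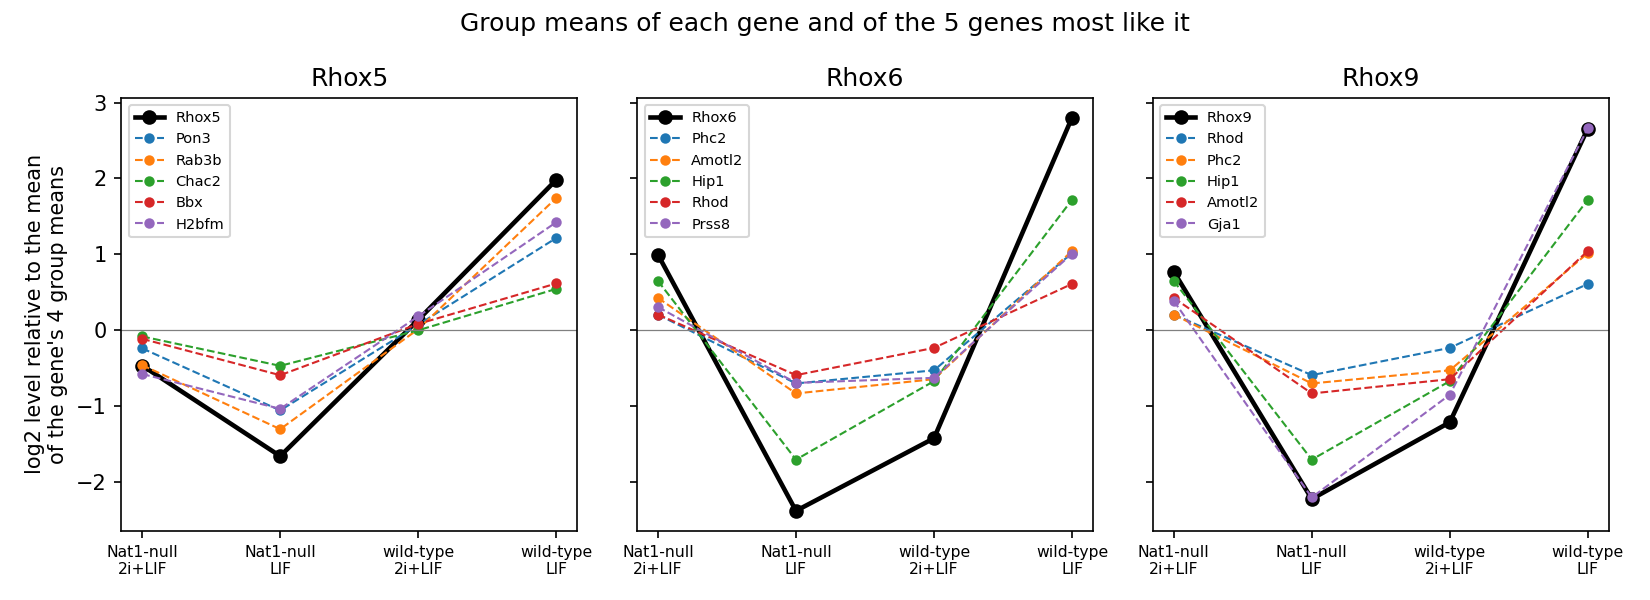
Group means of Rhox5, Rhox6 and Rhox9 (black) and of the 5 genes outside the family that correlate best with each over the 12 arrays (dashed), as log2 levels relative to the mean of the gene's 4 group means. The Rhox6 and Rhox9 panels are higher at Nat1-null 2i+LIF than at wild-type 2i+LIF, and Rhox5 is not.

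Genes that flank the cluster did not share one pattern, although those called between the Nat1-null groups all rose in 2i+LIF. The 12 nearest named genes with a tested probe were Rpl39, Upf3b, Nkap, Ndufa1, Rnf113a1 and Gm9 on the side of Rhox1, and Zbtb33, Lamp2, Cul4b, Mcts1, C1galt1c1 and Gria3 on the side of Rhox13. In Nat1-null LIF against wild-type LIF 4 rose and 4 fell, shares close to those of all genes (33.9% and 32.9%). The 2i effect differed between genotypes with a positive sign for 4 and with a negative sign for 2 (23.6% and 26.1% of all genes). Gria3, one of the 4 that fell and of the 4 with a positive sign, passed the filter through wild-type LIF alone, so that both follow from it. Without it, over the 11 neighbours bright on all arrays, 4 rose and 3 fell, and 3 were positive and 2 negative. Between the Nat1-null groups 6 of the 12 rose in 2i+LIF and none fell (21.4% and 15.8% of all genes). Of the 11 bright on all arrays 6 rose there (25.1% of all such genes). In Nat1-null against wild-type cells in 2i+LIF 4 of the 12 rose and none fell (21.0% and 22.6% of all genes). The group means of Gm9 had the order of those of Rhox5: its level was 0.54 ± 0.88 in Nat1-null 2i+LIF, -0.16 ± 0.91 in Nat1-null LIF, 0.93 ± 0.09 in wild-type 2i+LIF and 2.70 ± 0.04 in wild-type LIF (SD, n = 3 each). Gm9 is among the 36 genes set apart in the Nat1-null replicates numbered 2. It read -0.18, 1.52 and 0.30 in Nat1-null 2i+LIF and -0.78, 0.89 and -0.59 in Nat1-null LIF. Unlike in Rhox5, replicate 2 of Nat1-null 2i+LIF lay above all wild-type 2i+LIF arrays (0.84, 1.01 and 0.96). Values of Gm9 without these replicates are not given here. The 2i effect on Gm9 differed by 2.47 (limma, adjusted p = 0.012). Ndufa1, a subunit of respiratory complex I, and Zbtb33 (Kaiso), a zinc finger protein that binds methylated DNA, passed in none of the 5 comparisons.

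Among 16 genes of the DNA methylation machinery, 8 rose and 6 fell in Nat1-null LIF against wild-type LIF (33.9% and 32.9% of all genes). The 2i effect differed with a positive sign for 4 and a negative sign for 6 (23.6% and 26.1% of all genes), with a median of -0.15 against -0.03 over all genes. Dnmt3b, a de novo DNA methyltransferase, had levels of 4.21 ± 0.20 in Nat1-null 2i+LIF, 3.57 ± 0.25 in Nat1-null LIF, 3.21 ± 0.19 in wild-type 2i+LIF and 5.77 ± 0.02 in wild-type LIF. Its order of groups was that of Rhox6 and Rhox9 except that Nat1-null LIF stood above wild-type 2i+LIF. Dnmt3l, the cofactor of the de novo enzymes, was 2.77 ± 0.12, 4.44 ± 0.40, 1.07 ± 0.11 and 5.66 ± 0.03 in the same sequence of groups. Tet1 and Tet2, enzymes that oxidise methylated cytosine, were lowest in wild-type LIF, at 4.08 ± 0.03 and 2.19 ± 0.01. The 2i effects differed by 3.21 for Dnmt3b, 2.92 for Dnmt3l, -1.51 for Tet1 and -1.99 for Tet2 (limma, adjusted p between 1.6e-06 and 8.5e-05).

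In 2i+LIF most linker histones were lower in cells lacking Nat1. There 5 of 7 tested genes fell and none rose (22.6% and 21.0% of all genes), and in LIF none passed limma's test (0 of 7, and 1 at an unadjusted p below 0.05, where 66.8% of all genes passed). The count of falls in LIF was 2 under quantile normalization, 4 without scaling and 1 with normexp. The 2i effect differed with a negative sign for 6 of 7 (26.1% of all genes), for 0 of 7 without scaling, and for 3 of 7 without replicate 1 of wild-type LIF or without replicate 1 of Nat1-null LIF; the largest differences were H1f6 (-0.87), a testis histone, H1f5 (-0.82), H1f1 (-0.62) and H1f10 (-0.53). H1f1 averaged 2.47 ± 0.03 in Nat1-null 2i+LIF and 2.49 ± 0.09 in Nat1-null LIF, against 3.22 ± 0.10 in wild-type 2i+LIF and 2.62 ± 0.12 in wild-type LIF. Without the replicates numbered 2 the counts in 2i+LIF and for the difference of 2i effects were also 5 and 6, and 2 rose in LIF.

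Placental and trophoblast genes, the setting in which Rhox6 and Rhox9 are best known, more often fell than rose in Nat1-null LIF against wild-type LIF. Of 15 bright on all arrays, 10 fell and 4 rose there (28.3% and 40.8% of all such genes). Over all 19 tested the counts were 14 and 4 (32.9% and 33.9% of all genes), but Plac1 and Hand1 passed through wild-type LIF alone, so that their falls there and their positive differences of 2i effects follow from the filter. In Nat1-null against wild-type cells in 2i+LIF 10 rose and 3 fell (21.0% and 22.6% of all genes), and between the Nat1-null groups 9 rose in 2i+LIF and 1 fell (21.4% and 15.8%). Without the replicates numbered 2 the number that fell in 2i+LIF was 6. The 2i effect differed with a positive sign for 12 and with a negative sign for none (23.6% and 26.1% of all genes). Among the 15 bright on all arrays, 8 rose and 3 fell in 2i+LIF relative to wild type (25.3% and 21.0% of all such genes), 7 rose and 1 fell between the Nat1-null groups (25.1% and 16.0%), and 8 had a positive and none a negative difference of 2i effects (21.6% and 30.5%). The keratins Krt18 and Krt8 of simple epithelia had differences of 7.14 and 5.84, and the transcription factor Gata3 one of 6.81, which depends on the background subtraction since Gata3 was well above background on 2 of 3 arrays in Nat1-null LIF and in wild-type 2i+LIF. Krt18 had levels of 3.26 ± 0.04, 2.01 ± 0.22, 1.37 ± 0.07 and 7.26 ± 0.10 in Nat1-null 2i+LIF, Nat1-null LIF, wild-type 2i+LIF and wild-type LIF. Plac1, an X-linked placental gene, and Hand1, a transcription factor of trophoblast giant cells, were well above background on all arrays in wild-type LIF alone, so that their differences depend on the background subtraction. Cdx2 and Tpbpa, defining markers of trophoblast stem cells and spongiotrophoblast, were well above background on 1 array and on none. The summed signal of the list was 62.8 to 65.9 in Nat1-null 2i+LIF, 38.4 to 44.9 in Nat1-null LIF, 64.8 to 75.5 in wild-type 2i+LIF and 246 to 277 in wild-type LIF (a sum that the brightest probes dominate).

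**Figure D5:**
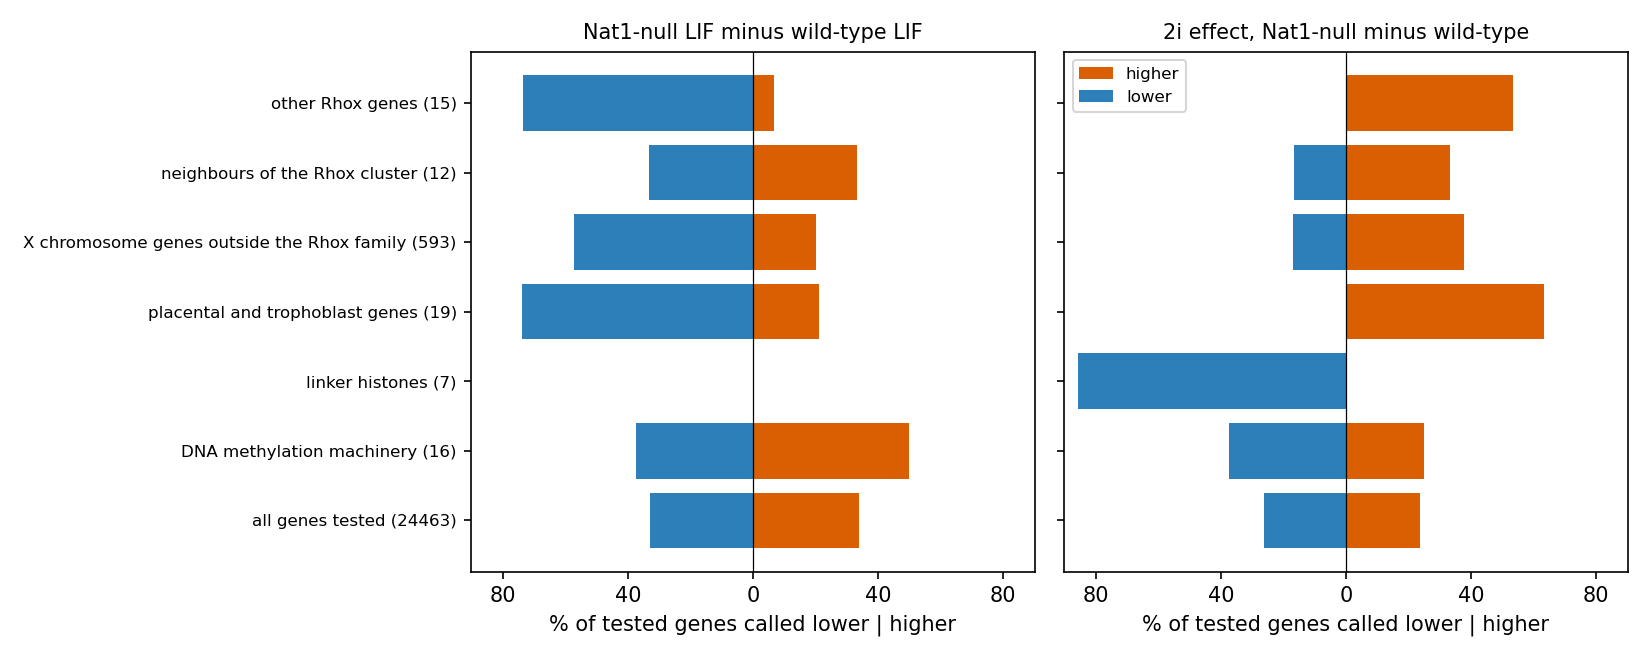
Share of tested genes (in %) called higher (right of 0) or lower (left of 0) by limma at adjusted p below 0.05 in Nat1-null LIF minus wild-type LIF (left panel) and for the 2i effect in Nat1-null minus wild-type cells (right panel), for 6 groups of genes and for all genes tested, with the number tested in parentheses. The other Rhox genes and the placental genes fall mostly to the left in the first panel and to the right in the second, whereas the linker histones have no called gene in the first.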

How the data were processed

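Single-colour Agilent arrays read the RNA of 12 samples of mouse embryonic stem cells. Intensity values in the deposited files come from Feature Extraction 10.7.3.1, per the file headers, with background and spatial trends removed within each array. A deposited table of log2 values holds the same signal with each array's 75th percentile set to 0, which was tested against the scanner files (largest difference 0.0226).

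Here the log2 processed signal was recomputed without control spots and scanner outliers, averaged over spots, and shifted by the same percentile. RefSeq accessions gave 27650 of 55681 probes a symbol. Of 54229 probes valued on each array, 33293 passed the filter (every array of 1 or more groups well above background), and the brightest probe of a gene stood for it (24463 genes). limma 3.58.1 (R 4.3.3) fitted 4 group means over 12 arrays. P-values are two-sided and adjusted by Benjamini-Hochberg across the 24463 genes, with calls at adjusted p below 0.05.

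The genes, lists and tests were chosen with earlier results of these data known. Named genes are the Rhox genes, the 6 nearest named neighbours on each side, Eif4g2, the 5 genes most correlated with each of the 3, and the called members with the largest interaction or wild-type 2i difference of the DNA methylation, linker histone and placental lists; other lists are given as counts. Groups of 3 arrays limit the precision. Alternatives were quantile normalization, no scaling, normexp correction (offset 50), the series table, stricter and no filters, the mean of a gene's probes, a replicate block and leaving out arrays. Tables and plots were made in Python 3.11.15.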

Additional observations from a re-analysis of the deposited data

Results flagged for a closer look

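The effect of 2i differed between Nat1-null and wild-type cells for the genes listed here, each value being the 2i effect in Nat1-null cells minus that in wild-type cells on the log2 scale. For Rhox6 (7.59) and Rhox9 (6.86), every Nat1-null array in 2i+LIF lay above every Nat1-null array in LIF and every wild-type array in 2i+LIF lay below every wild-type array in LIF, and this difference was not tested because the genes were chosen for it. For the others the difference itself passed limma's test over all genes. Rhox12, Gria3, Plac1 and Hand1 entered that test only because they were bright in wild-type LIF, where they are highest, so their pass is not evidence of a difference.

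Among the Rhox genes these were Rhox5 (3.04), Rhox4a (3.10), Rhox4e (3.00), Rhox4g (2.84), Rhox3a (1.80), Rhox2e (1.76), Rhox2h (1.68) and Rhox2c (1.64), and Rhox12 (4.33), whose value depends on the background subtraction since it was well above background in wild-type LIF alone. The largest adjusted p among them is 0.049, for Rhox3a.

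Outside the family the test passed for the neighbours Gm9 (2.47), Gria3 (2.54, dim outside wild-type LIF), Cul4b (0.43), Mcts1 (0.33), Nkap (-0.34) and Upf3b (-0.83), and for Eif4g2 itself (0.32). Of the 3 lists that follow, only called members with the largest differences are named, and not all that passed. It passed with a positive sign for 4 and a negative sign for 6 of 16 genes in the DNA methylation list. Among linker histones it passed with a negative sign for 6 of 7, and in the placental list with a positive sign for 12 of 19. In the DNA methylation list it passed for Dnmt3b (3.21), Dnmt3l (2.92), Tet1 (-1.51) and Tet2 (-1.99), and among linker histones for H1f6 (-0.87), H1f5 (-0.82), H1f1 (-0.62) and H1f10 (-0.53). In the placental list it passed for Krt18 (7.14), Gata3 (6.81, dim on 1 array in Nat1-null LIF and 1 in wild-type 2i+LIF) and Krt8 (5.84), and for Plac1 (8.84) and Hand1 (6.78), which were well above background on all arrays in wild-type LIF alone.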

How the results depend on the processing

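The interaction of Rhox5 kept its direction and its call under all alternatives run, with values from 2.64 to 3.47, as did its fall in wild-type 2i+LIF and in Nat1-null LIF. Its rise in Nat1-null 2i+LIF against Nat1-null LIF (1.19) was no longer called under quantile normalization (1.11) or no scaling (1.00), and leaving out 1 array at a time gave 0.79 to 1.63. Its difference between Nat1-null and wild-type cells in 2i+LIF was called only without both Nat1-null arrays numbered 2 (-0.87, an alternative chosen after seeing the data); leaving out 1 array at a time gave -0.87 to -0.40. Without scaling, the wild-type 2i differences became -4.79 for Rhox6 and -4.43 for Rhox9, and Nat1-null minus wild-type in 2i+LIF became 2.21 for Rhox9. That setting moves the median of all genes in wild-type cells to -0.50, against 0.06 with the 75th percentile, and turns the split of calls to 2239 higher and 15244 lower, against 8565 and 6662. It gave 9896 higher and 3147 lower against 5133 and 5533 for Nat1-null minus wild-type in 2i+LIF, 1911 and 6714 against 5224 and 3855 between the Nat1-null groups, 6238 and 9637 against 8294 and 8055 in LIF, and 10272 and 2810 against 5769 and 6397 for the interaction. Without the Nat1-null arrays numbered 2, the counts of other Rhox genes were 1 higher and 11 lower in wild-type 2i+LIF (0 and 4 with all arrays), 3 and 9 in Nat1-null against wild-type cells in 2i+LIF (1 and 4), 9 higher between the Nat1-null groups (3), and 10 higher and 2 lower for the interaction (8 and 0). The number lower in wild-type 2i+LIF was 14 without scaling, 7 with normexp and 2 with no filter, and normexp and quantile normalization gave 1 higher. In Nat1-null against wild-type cells in 2i+LIF the number higher was 0 with normexp, with no filter and with the mean of probes. In LIF it was 0 with the mean of probes and without scaling. With only probes bright on all 12 arrays 1 rose between the Nat1-null groups, and with no filter 4 were higher for the interaction. Leaving out 1 array at a time, the counts in wild-type 2i+LIF were 0 to 1 higher and 1 to 11 lower. They were 0 to 1 higher and 3 to 7 lower in Nat1-null against wild-type cells in 2i+LIF, 1 to 8 higher between the Nat1-null groups, and 4 to 10 higher and 0 to 1 lower for the interaction. The cause of these shifts was not tested. With replicate numbers as a replicate block, 10 other Rhox genes fell in wild-type 2i+LIF and the interaction of Rhox5 was 3.04; residuals of same-numbered arrays correlated above 0.1 in 1 of 18 pairs, the Nat1-null arrays numbered 2 (0.301), so the numbers were not taken to pair the samples, and whether number 2 marks a shared source in the Nat1-null groups was not tested. Probes near background limit Rhox12 and the second Rhox7a probe.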

Other observations

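The replicates numbered 2 of both Nat1-null groups shared a set of genes beyond the Rhox family, found after their values were seen. Of 18980 genes well above background on all arrays, 36 exceeded both other replicates by over 1 log2 unit in replicate 2 of Nat1-null 2i+LIF and also in replicate 2 of Nat1-null LIF, and 5 were lower by that much. Of the 36, 16 lie on the X chromosome, which holds 448 of the 18980, and 7 are Rhox genes. The same count was 0 for replicates 1 and 3 of the Nat1-null groups, and in the wild-type groups 1 for replicate 2 and 0 for the other two.

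Esx1, an X-linked homeobox gene of the placenta, was one of them. It had levels of -0.34, 1.01 and -0.02 in Nat1-null 2i+LIF, of -1.17, 0.35 and -1.19 in Nat1-null LIF, of 0.64, 0.49 and 0.66 in wild-type 2i+LIF and of 0.09, 0.25 and 0.13 in wild-type LIF. The X-linked Tex13b had -0.43, 0.90 and -0.27 in Nat1-null 2i+LIF, -1.64, 0.25 and -1.15 in Nat1-null LIF, 1.28, 1.22 and 1.02 in wild-type 2i+LIF and 0.36, 0.46 and 0.52 in wild-type LIF. The autosomal germ-line gene Asz1 had -2.43, -0.57 and -1.95 in Nat1-null 2i+LIF, -2.50, -0.70 and -2.29 in Nat1-null LIF, -0.69, -0.69 and -0.83 in wild-type 2i+LIF and -0.87, -0.80 and -0.73 in wild-type LIF. In Tex13b and Asz1 replicate 2 of the Nat1-null groups lay closer to the wild-type arrays in 2i+LIF than the other Nat1-null replicates did. Iqca, another of the 36, went the other way. It read -1.37, 0.19 and -1.15 in Nat1-null 2i+LIF, against -1.59, -1.67 and -1.58 in wild-type 2i+LIF. These genes are examples, and how many of the 36 lay closer to wild type was not counted. Nat1-null replicates 1 and 3 and replicate 2 carry no label that sets them apart.

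Other gene groups gave these counts for the difference of 2i effects between genotypes, where 23.6% of all genes were positive and 26.1% negative. Among primordial germ cell genes, 2 of 13 were positive and 10 negative, with a median of -1.28, the opposite of the placental list. Among pluripotency markers, 1 of 15 was positive and 11 negative (-1.20). Pou5f1, Sox2 and Nanog are in both of these lists, so their counts are not separate. Tfap2c is in both the primordial germ cell list and the placental list. Germline genes silenced by promoter methylation had 6 positive and 7 negative of 22 (0.19), with 2 negative without scaling, and extraembryonic endoderm genes had 4 and 5 of 18 (-0.18), with 7 and 3 without scaling; these shares are close to those of all genes. Among genes of H3K9 methylation and heterochromatin 1 was positive and 6 were negative of 12 (-0.19), but 4 and 1 without scaling. Fibroblast and feeder markers had 8 positive and none negative of 11 (5.07), 4 of which passed the filter through wild-type LIF alone, and 2 positive of the 5 bright on all arrays (0.51). X-linked genes outside the Rhox family had 224 and 100 of 593 (0.29). Some of these, Gria3 and Plac1 among them, passed the filter through wild-type LIF alone. Of the 433 bright on all arrays, 144 were positive and 91 negative, with a median of 0.10. These are 33.3% and 21.0%, against 21.6% and 30.5% of all genes bright on all arrays.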
